A study of Mus musculus with 4 samples.

Results

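The genes described here build, organise and bind the hyaluronan matrix: the lecticans Acan, Vcan, Ncan and Bcan, the link protein genes Hapln1, Hapln3 and Hapln4, the hyaluronan synthase genes Has2 and Has3, and the hyaluronan receptor gene Cd44. They were taken by gene symbol, and all 10 were among the 18702 genes listed in each library. Ncan and Bcan, the lecticans known from nervous tissue, were set against the other 8, most of which are known from cartilage and mesenchyme. The libraries were made from total RNA of eye tissue of C57BL/6 mouse embryos, 2 from wild-type embryos (Anp32b+/+) and 2 from embryos labelled Anp32b−/− or KO, called knockout below. The sources used here do not give the age or sex of the embryos, how many were pooled, which part of Anp32b is deleted, or any allele or treatment that both genotypes share. Nothing says that the 2 libraries of a genotype came from separate embryos, so p-values reflect no more than the spread among the libraries, and that spread may be technical.

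Lecticans are large proteoglycans that carry chondroitin sulfate chains and hold on to hyaluronan through a globular domain at their amino end. Link proteins bind the same hyaluronan chain and the lectican beside it, and so keep the complex together, while hyaluronan synthases spin the chain out through the plasma membrane. In the eye, hyaluronan fills the vitreous body and the mesenchyme around the developing cup, and lecticans are also part of the matrix between neurons.

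Levels are deposited FPKM values, that is, fragments of a transcript scaled to its length and to the fragments of the whole library. They may be compared between genes because they are per length. A change is the difference knockout minus wild type on the log2(FPKM + 1) scale, which understates changes at low levels. It was called where the Benjamini-Hochberg adjusted p of limma was under 0.05 among the 13887 genes tested, those averaging 1 FPKM or more over the 4 libraries. Low values placed the depth of the libraries at about 17560000 to 17960000 fragments, so that counting error is large for the genes under 1 FPKM. The targeted gene, Anp32b, read 163.2 and 179.1 FPKM in wild-type eyes, against 94.5 and 92.7 FPKM in knockout eyes, a mean of 54.7% of the wild type. Of the genes that define eye tissue, the lens crystallins made up 14.9% and 14.8% of all FPKM in the wild-type libraries and 1.42% in each knockout library. Because FPKM and TPM are shares of a whole, such a fall in abundant transcripts moves all other genes. The median change of all tested genes was 0.04 with FPKM and 0.16 with the deposited TPM, and changes are best read against that shift.

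Most of the hyaluronan matrix genes were higher in the knockout eye tissue, the neural lecticans were not called higher, and Hapln3, a link protein gene, went the other way. Of the 10 genes, 6 were called higher (Vcan, Acan, Hapln1, Has2, Has3 and Cd44), Hapln3 was called lower, Ncan was not past the threshold, and Bcan and Hapln4 were below the level tested. Calls are frequent in these data: 33.5% of all tested genes were called higher and 21.1% lower. With TPM the shares were 49.9% and 12%, with median-of-ratios scaling 28.9% and 25.9%, with crystallin and erythroid genes left out of the scaling 25.4% and 31.2%, and with no filter 24.5% and 14.8%. By values alone, both knockout libraries lay above both wild-type libraries for the 6 genes called higher and below them for Hapln3 and Ncan, while Bcan and Hapln4 overlapped. Of all 18697 genes above 0 in a library, 39.9% lay above and 28.2% below in this way. Acan passed the filter on low values only through its knockout libraries, so its presence among the tested genes depended on its being high there. In bulk tissue, a change in the number of cells of a type and a change in RNA per cell cannot be told apart.

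**Figure D1:**
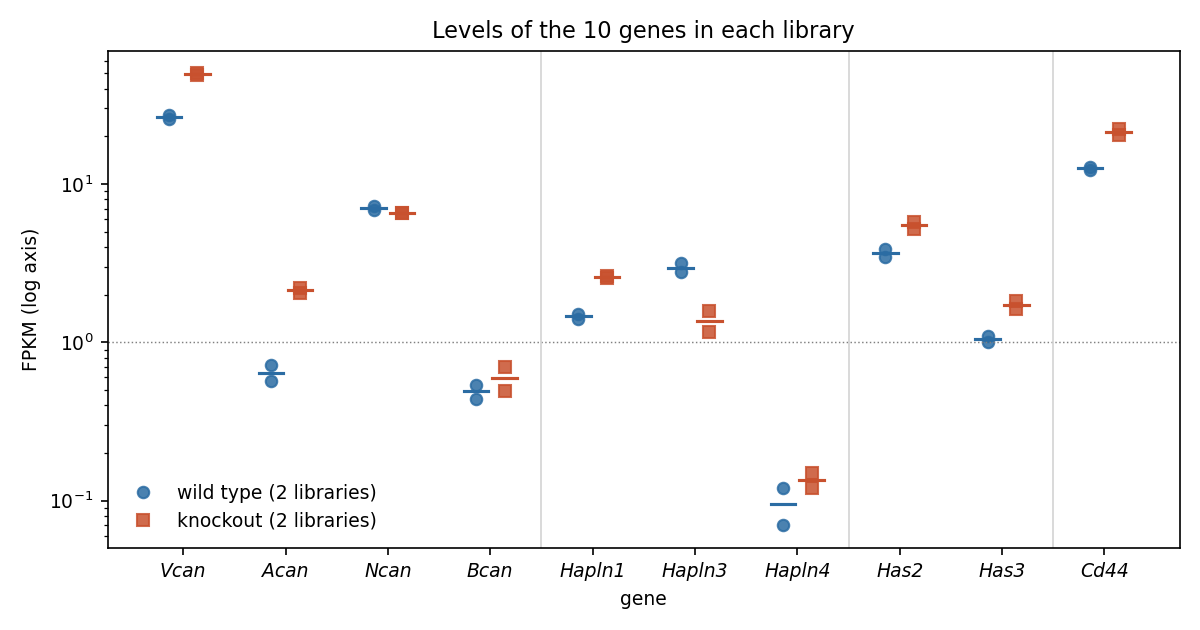
FPKM (log axis) of each gene in the 2 wild-type libraries (circles) and the 2 knockout libraries (squares), with short lines at the means and a dotted line at 1 FPKM. Vcan is the most abundant gene of the set in every library, at 25.6 to 27.2 FPKM in the wild type and 49.07 to 49.96 in the knockout, and Hapln4 is the least abundant, at 0.07 to 0.15 FPKM.

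Among the core proteins, Vcan, which encodes versican, the lectican of loose mesenchyme and vessel walls, was the most abundant and rose. It read 27.2 and 25.6 FPKM in wild-type eyes, against 49.96 and 49.07 FPKM in knockout eyes. Both knockout libraries lay far above both wild-type libraries, and the groups were well apart. The knockout mean was 1.87-fold the wild-type mean, with a log2 fold change of 0.88 (SE 0.04, limma adjusted p = 5.42e-06), and 2.72% of all tested genes had a larger rise.

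Acan encodes aggrecan, the bulk proteoglycan of cartilage, and it was scarce in the wild type. In wild-type eyes it read 0.57 and 0.72 FPKM, against 2.06 and 2.2 FPKM in knockout eyes. Both knockout libraries were higher, and the ratio of means, 3.30, was the highest of the 10 genes. The log2 fold change of 0.93 (SE 0.10, limma adjusted p = 0.000262) corresponds to a smaller ratio because 1 is added before the logarithm. With 0.1 added in its place the log2 fold change was 1.59. Acan stayed far scarcer than Vcan in every library, with a ratio of Acan to Vcan of 0.0209 and 0.0281 in the wild type and 0.0412 and 0.0448 in the knockout.

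Ncan encodes neurocan, a lectican of brain and retina, and was the second most abundant lectican. It read 6.90 and 7.27 FPKM in wild-type eyes, against 6.56 and 6.59 FPKM in knockout eyes. Both knockout values lay just below both wild-type values, but the gap was close to the spread between the wild-type libraries. The log2 fold change was −0.09 with a 95% interval from −0.23 to 0.04 (limma adjusted p = 0.191). The sign depended on the scaling: with TPM the values overlapped and the log2 fold change was 0.01 (limma adjusted p = 0.859). When crystallin and erythroid genes were left out of the scaling it was −0.17 and was called lower (adjusted p = 0.0397).

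Bcan, which encodes brevican, a lectican of the postnatal brain, was near the limit of detection. It read 0.54 and 0.44 FPKM in wild-type eyes, against 0.70 and 0.49 FPKM in knockout eyes, and the groups overlapped. On its longest annotated transcript these values come to 24 to 39 fragments a library. In a fit without the filter its log2 fold change was 0.10, with a 95% interval from −0.13 to 0.33 (limma adjusted p = 0.435), so that no difference was detectable at this depth. Summed over the 4 lecticans, the level was 35.2 and 34.1 FPKM in the wild type and 59.3 and 58.4 FPKM in the knockout. Vcan made up 77.3% and 75.3% of that sum in the wild type and 84.3% and 84.1% in the knockout, while the share of Ncan went from 19.6% and 21.3% to 11.1% and 11.3%.

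The link protein genes changed places. Hapln1, the link protein of cartilage, which also acts in the developing heart, read 1.51 and 1.41 FPKM in wild-type eyes, against 2.54 and 2.63 FPKM in knockout eyes. Both knockout libraries were higher, by a log2 fold change of 0.54 (SE 0.08, limma adjusted p = 0.00138) or 1.77-fold in the mean.

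Hapln3, a link protein described in vessel walls and other tissues outside the brain, was the only one of the tested members called lower with FPKM. It read 2.77 and 3.15 FPKM in wild-type eyes, against 1.17 and 1.57 FPKM in knockout eyes, so that both knockout libraries were lower and the mean was 46.3% of the wild-type mean. On the log2 scale the difference was −0.74 (SE 0.11, limma adjusted p = 0.00121), and 1.57% of all tested genes had a larger fall. Hapln3 was thus more abundant than Hapln1 in the wild-type libraries and less abundant in the knockout libraries. The ratio of Hapln3 to Hapln1 within a library, which no library scaling can alter, was 1.83 and 2.23 in the wild type and 0.461 and 0.597 in the knockout.

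Hapln4, a link protein of perineuronal nets in the brain, read 0.12 and 0.07 FPKM in wild-type eyes, against 0.15 and 0.12 FPKM in knockout eyes. These levels come to 4 to 10 fragments a library, and the groups touched. Without the filter its log2 fold change was 0.05, with a 95% interval from −0.07 to 0.17 (limma adjusted p = 0.409). The 3 link protein genes together summed to 4.40 and 4.63 FPKM in the wild type and 3.86 and 4.32 FPKM in the knockout. With FPKM this total was thus slightly lower in both knockout libraries, while the lectican total was higher. The closest values, 4.40 and 4.32 FPKM, were near each other, and with TPM the link protein totals of the groups overlapped.

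Among the synthases, Has2, the enzyme that makes most hyaluronan in the embryo, read 3.45 and 3.90 FPKM in wild-type eyes, against 5.23 and 5.77 FPKM in knockout eyes. Both knockout libraries were higher, with a log2 fold change of 0.48 (SE 0.08, limma adjusted p = 0.00204) and a ratio of means of 1.5. The gene Has2os overlaps Has2 on the opposite strand, and the sources used here do not say if strand was used in counting.

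Has3, known from epithelia among other tissues, read 1.09 and 1.01 FPKM in wild-type eyes, against 1.82 and 1.63 FPKM in knockout eyes. Both knockout values lay above the wild-type values (log2 fold change 0.41, SE 0.09, limma adjusted p = 0.00898), a ratio of means of 1.64. Its call was lost without knockout replicate 1 (0.36, adjusted p = 0.0589). Has3 overlaps Chtf8 on the opposite strand. Has1, the remaining synthase, was outside the set and was not past the threshold with FPKM, at 3.61 and 3.46 FPKM in the wild type and 3.96 and 3.75 FPKM in the knockout (0.10, adjusted p = 0.263). With TPM it was called higher (0.22, adjusted p = 0.0480). Has1 and Has2 were at similar levels in the wild type, whereas in the knockout the ratio of Has2 to Has1 was 1.32 and 1.54, against 0.956 and 1.13.

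Cd44, the main cell surface receptor for hyaluronan, found on mesenchyme, epithelium and leukocytes, was the second most abundant gene of the set. It read 12.8 and 12.3 FPKM in wild-type eyes, against 20.5 and 22.3 FPKM in knockout eyes. The groups were well apart, with a log2 fold change of 0.73 (SE 0.05, limma adjusted p = 3.94e-05) and a ratio of means of 1.71. In the same libraries 6 of 6 tested leukocyte marker genes were higher (median 0.78), and 12 of 12 markers of periocular mesenchyme were higher (median 1.126). Of 10 markers of surface epithelium, 9 were higher and 1 was lower (median 0.88). The summed level of the leukocyte markers was 37.15 and 34.55 FPKM in the wild type and 71.79 and 78.03 FPKM in the knockout, and that of the epithelial markers 652.7 and 678.8 FPKM against 1252 and 1255 FPKM. Their part in the level of Cd44 was not tested. The pan-leukocyte gene Ptprc was itself below 1 FPKM on average, and the ratio of Cd44 to Ptprc overlapped between the groups, at 26.6 and 21.6 in the wild type and 25.0 and 28.6 in the knockout.

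In order of level in the wild type, the set ran Vcan, Cd44, Ncan, Has2, Hapln3, Hapln1, Has3, Acan, Bcan and Hapln4. In the knockout Acan stood ahead of Has3, and Hapln3 stood behind Hapln1, Acan and Has3. Neighbours in either order did not overlap, but some were close: Acan and Bcan in the wild type (0.57 to 0.72 and 0.44 to 0.54 FPKM), and Has3 and Hapln3 in the knockout (1.63 to 1.82 and 1.17 to 1.57 FPKM). These orders were not tested.

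**Figure D2:**
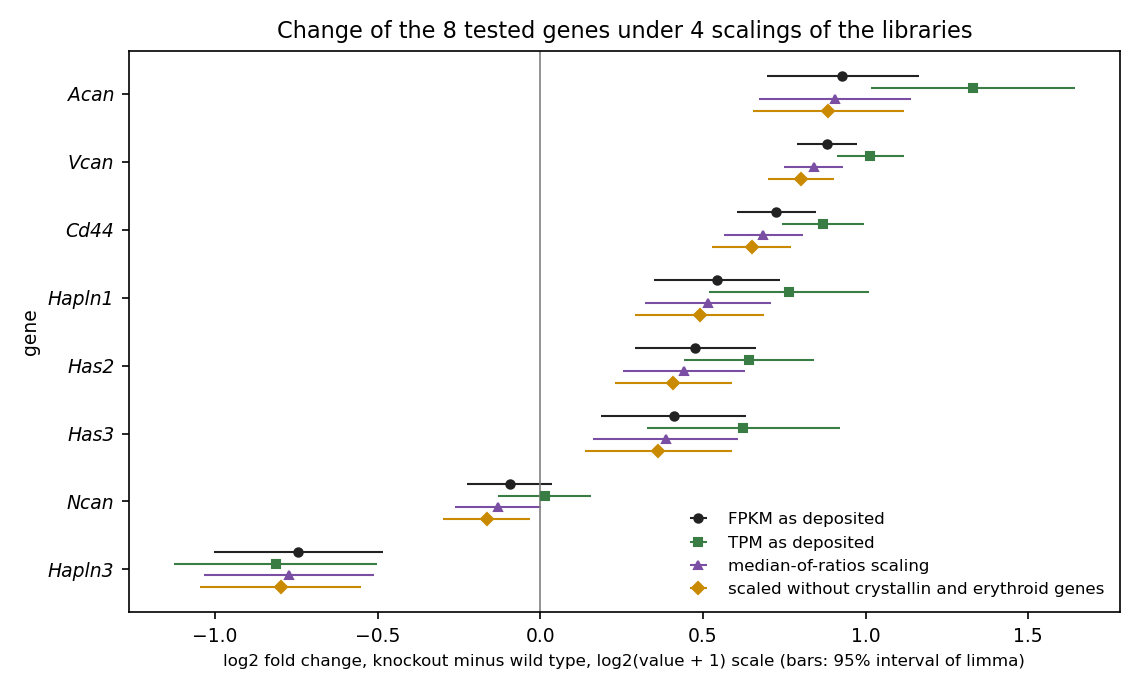
Log2 fold change (knockout minus wild type, log2(value + 1) scale) of the 8 tested genes with the 95% interval from limma, for FPKM, TPM and 2 rescalings of FPKM. The intervals of Acan, Vcan, Cd44, Hapln1, Has2 and Has3 lie above 0 and those of Hapln3 below 0 under each of the 4, while Ncan moves from 0.01 with TPM to −0.17 when crystallin and erythroid genes are left out of the scaling.

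Setting the neural lecticans against the other genes as FPKM ratios within each library removes the library scale. The FPKM ratio of Ncan to Vcan was 0.253 and 0.284 in the wild type and 0.131 and 0.134 in the knockout. The wild-type libraries were higher by 2.02-fold, and the groups did not overlap. The ratio of Ncan to Acan went from 12.1 and 10.1 to 3.18 and 3, a 3.58-fold difference and the widest of the set. Against Hapln1, Cd44, Has3 and Has2 the ratio of Ncan was 1.91-fold, 1.84-fold, 1.77-fold and 1.61-fold higher in the wild type, each without overlap. Ncan itself changed little, so these ratios largely restate the rises of the other genes given above. Hapln3 was the exception: the ratio of Ncan to Hapln3 was 2.49 and 2.31 in the wild type and higher, at 5.61 and 4.2, in the knockout. Bcan, at its low level, had ratios to Vcan of 0.0198 and 0.0172 in the wild type and 0.0140 and 0.00999 in the knockout. Bcan relative to Ncan overlapped between the groups. The mean log2(FPKM + 1) of Ncan and Bcan minus that of the other 8 genes was −0.18 and −0.21 in the wild type and −0.53 and −0.68 in the knockout. Because 1 is added to each value, this difference of means still depends on the library scale, unlike the ratios. No p-value is given for the ratios or for this difference, and with 2 libraries a group they are descriptions of these libraries.

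**Figure D3:**
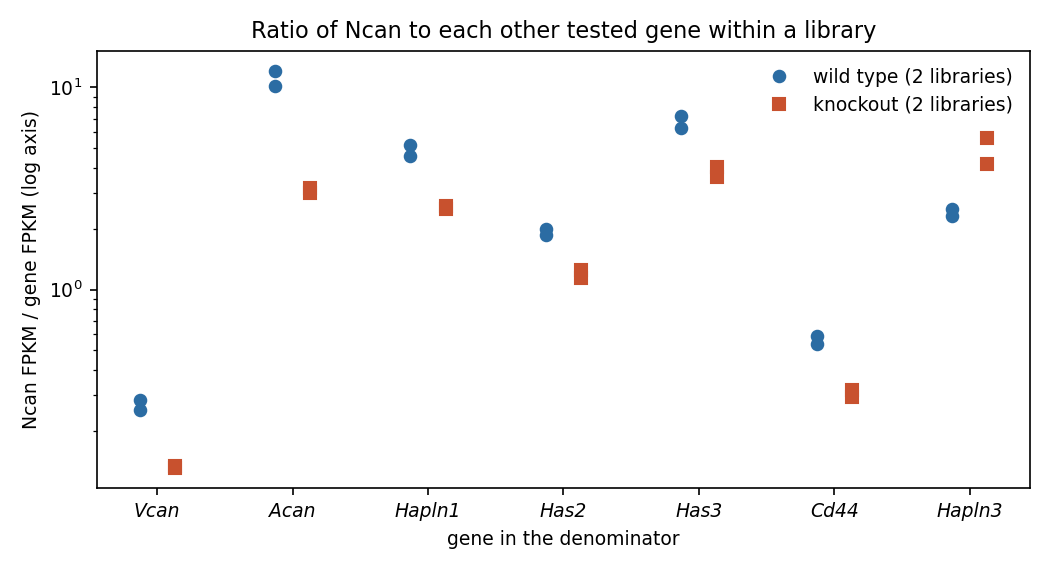
Ratio of Ncan FPKM to the FPKM of each other tested gene within a library (log axis), for the 2 wild-type (circles) and 2 knockout (squares) libraries. The ratio is lower in both knockout libraries for Vcan, Acan, Hapln1, Has2, Has3 and Cd44 and higher for Hapln3.

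Lectican and link protein genes lie side by side in the genome, and neighbours did not always move together. In the GENCODE annotation of GRCm38, Acan (chromosome 7, 79053483 to 79115099, plus strand) ends 2 bases before the end of Hapln3 (79115102 to 79131018, minus strand). Hapln1 (chromosome 13, 89539796 to 89611652, plus strand) and Vcan (89655312 to 89742509, minus strand) also point at each other, 43659 bases apart. Hapln4 (chromosome 8, 70083457 to 70090862, plus strand) and Ncan (70093085 to 70120873, minus strand) are 2222 bases apart. Bcan (chromosome 3, 87987531 to 88000230) and Hapln2 (88021750 to 88027583), both on the minus strand, are 21519 bases apart, and no annotated gene lies between the members of any of the 4 pairs. Of the genes without such a neighbour, Has2 lies on chromosome 15 (56665627 to 56694539, minus strand), Has3 on chromosome 8 (106870242 to 106884566, plus strand) and Cd44 on chromosome 2 (102811141 to 102901665, minus strand).

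Vcan and Hapln1 rose by nearly the same factor, and their ratio was 18.0 and 18.2 in the wild type and 19.7 and 18.7 in the knockout. Acan and Hapln3 went opposite ways, so that their ratio rose from 0.206 and 0.229 to 1.76 and 1.4, or 7.24-fold. Sharing of reads between the ends of Acan and Hapln3, which nearly touch on opposite strands, was not tested. Vcan, Hapln1 and Cd44 also overlap annotated genes on the opposite strand. Ncan and Hapln4 showed no call, and Hapln4 was too low to set against it. Hapln2, the link protein beside Bcan and known from nodes of Ranvier, was at 0.24 and 0.13 FPKM in the wild type and 0.08 FPKM in both knockout libraries, or 2 to 7 fragments, which is too few to compare.

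**Figure D4:**
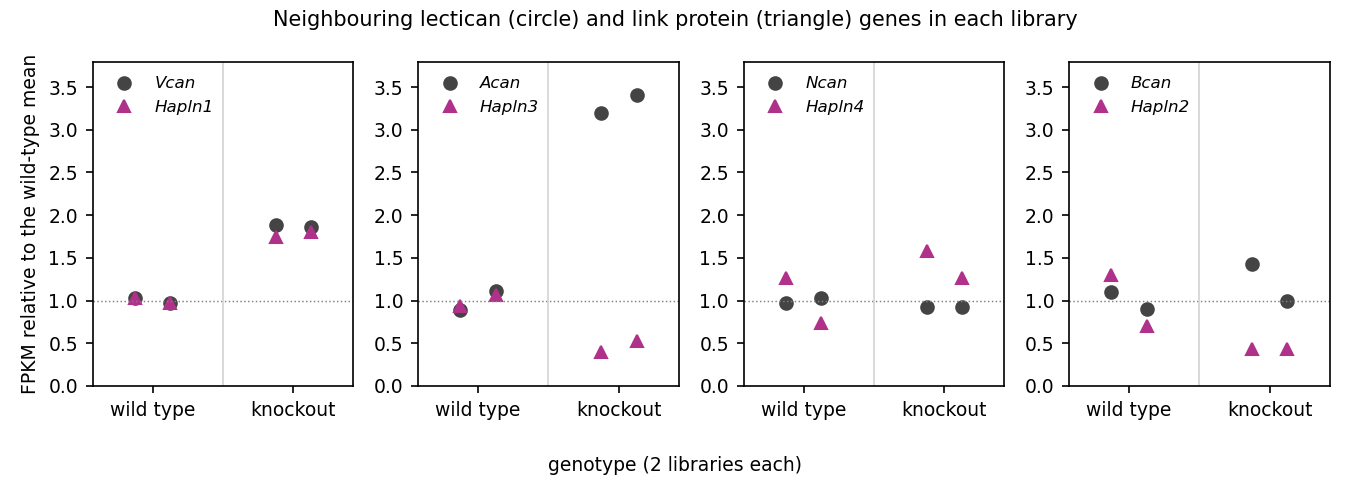
FPKM of neighbouring lectican (circles) and link protein (triangles) genes, each divided by its own wild-type mean, in the 2 wild-type and 2 knockout libraries. Vcan and Hapln1 rise side by side, whereas Acan rises and Hapln3 falls. Hapln4, Bcan and Hapln2 rest on few fragments and scatter.

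The promoters of both pairs that changed, and of Ncan, are shown because the genes of a pair share a neighbourhood but have start sites of their own. Each sequence runs 5′ to 3′ on the strand of the gene, from 250 bases before to 50 bases after the RefSeq start site in GRCm38.p6, for 5 of the 7 members found in that table. The last 50 bases of the Acan and Vcan windows were in no GENCODE transcript, so their RefSeq and GENCODE start sites differ. The RefSeq starts of Hapln1 and Ncan also differ from the starts of their GENCODE genes. The Hapln1 window lies wholly inside the GENCODE gene, which begins at 89539796. On the minus strand, the GENCODE gene of Ncan begins at 70120873, upstream of the RefSeq start. Only for Hapln3 did the RefSeq start and the GENCODE gene start coincide. The Acan window ends before the GENCODE start of that gene, 79053483. Capitals mark matches on either strand to GGGCGG (the GC box bound by SP factors), TATAAA (the TATA box) or ACAANG (a core bound by SOX factors).
Acan promoter, chr7:79052976-79053275, plus strand: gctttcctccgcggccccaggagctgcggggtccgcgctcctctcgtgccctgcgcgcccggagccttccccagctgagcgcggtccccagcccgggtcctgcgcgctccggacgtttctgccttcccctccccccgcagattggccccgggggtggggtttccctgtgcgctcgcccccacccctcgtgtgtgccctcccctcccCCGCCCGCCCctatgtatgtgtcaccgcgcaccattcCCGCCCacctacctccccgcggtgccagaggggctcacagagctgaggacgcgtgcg
Hapln3 promoter, chr7:79130969-79131268, minus strand: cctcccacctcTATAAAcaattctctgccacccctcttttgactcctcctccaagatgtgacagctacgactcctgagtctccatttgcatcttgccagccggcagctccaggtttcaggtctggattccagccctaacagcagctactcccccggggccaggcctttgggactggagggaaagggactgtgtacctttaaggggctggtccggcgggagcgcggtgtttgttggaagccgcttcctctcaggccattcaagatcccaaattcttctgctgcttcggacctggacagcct
Vcan promoter, chr13:89742463-89742762, minus strand: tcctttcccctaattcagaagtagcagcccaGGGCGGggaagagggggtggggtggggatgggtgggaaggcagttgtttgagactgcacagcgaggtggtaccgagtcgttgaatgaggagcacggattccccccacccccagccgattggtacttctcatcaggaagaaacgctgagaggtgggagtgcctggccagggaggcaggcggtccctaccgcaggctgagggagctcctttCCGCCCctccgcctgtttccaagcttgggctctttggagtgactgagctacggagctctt
Hapln1 promoter, chr13:89540386-89540685, plus strand: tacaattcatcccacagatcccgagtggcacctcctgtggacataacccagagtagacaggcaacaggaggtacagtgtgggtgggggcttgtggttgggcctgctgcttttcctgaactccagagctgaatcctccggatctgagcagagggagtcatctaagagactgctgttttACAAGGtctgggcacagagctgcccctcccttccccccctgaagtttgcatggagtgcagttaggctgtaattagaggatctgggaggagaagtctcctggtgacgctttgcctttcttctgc
Ncan promoter, chr8:70120795-70121094, minus strand: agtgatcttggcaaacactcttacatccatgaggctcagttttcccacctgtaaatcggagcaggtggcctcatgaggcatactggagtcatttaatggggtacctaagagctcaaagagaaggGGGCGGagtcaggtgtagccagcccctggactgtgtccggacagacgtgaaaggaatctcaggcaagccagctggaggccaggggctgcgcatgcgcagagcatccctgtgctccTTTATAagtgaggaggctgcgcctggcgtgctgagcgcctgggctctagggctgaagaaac
The Acan window had 74.0% G and C and 31 CpG pairs, against medians of 52.7% and 7 over all 32851 promoters of the table, and held 3 GC box matches, 2 of them overlapping. The Hapln3 window had 57.0% G and C and 9 CpG pairs, no GC box match and 1 TATA match, which lies 239 bases before the start. The Vcan window (61.0% and 12 CpG pairs) held 2 GC box matches, while Hapln1 (54.3% and 3 CpG pairs) held no GC box match and 1 match to ACAANG. The Ncan window (56.7% and 9 CpG pairs) held 1 GC box match and 1 TATA match. This TATA match lies 11 bases before the RefSeq start but inside the GENCODE gene. Of all promoters, 35.7% held a GC box match, 13.6% a TATA match and 41.2% a match to ACAANG. Vcan and Hapln1, which rose together, shared no match among the 3 motifs. A match is a description of these letters only.

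Pathway genes around these molecules, from supply and chain synthesis to breakdown, binding and partners, were more often higher than lower. Over 8 lists of hyaluronan and lectican pathway genes, 66 genes were tested, 43 of which were higher and 6 lower, with a median log2 fold change of 0.26, beside 0.04 for all genes. That is 65.2% higher and 9.09% lower, beside 33.5% and 21.1% of all tested genes. Of 9 genes that supply the sugar nucleotides, 6 were higher and 0 lower. By p-value they were led by Ugdh, which makes the UDP-glucuronate that enters both hyaluronan and chondroitin sulfate (26.2 to 37.2 FPKM in the mean, 0.49, limma adjusted p = 6.17e-05), Ugp2 (0.28) and Gfpt1 (0.36), the first enzyme of the hexosamine pathway. The rise of the related Gfpt2 was larger (3.83 to 6.46 FPKM, 0.63, limma adjusted p = 0.000715). Of 19 tested genes for chondroitin and dermatan sulfate chains, 13 were higher and 1 lower, with a median of 0.41. Some of these 13, which also count among the 43, averaged under 1 FPKM in the wild type. They passed the filter only through the knockout libraries, so their being tested depended on their being high there. Chpf, a chondroitin polymerising factor, rose by 0.48, Chst14, the dermatan 4-O-sulfotransferase, by 0.80 and Dse, the dermatan sulfate epimerase, by 0.58. Chst11, the chondroitin 4-O-sulfotransferase, fell by 0.25, a call that was lost with TPM (limma adjusted p = 0.0960) and without wild-type replicate 1 or knockout replicate 1 (−0.19 and −0.21).

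Genes that take the matrix apart were also more often higher than lower with FPKM. Of 7 tested hyaluronan breakdown genes 6 were higher, of which Hyal2, a cell surface hyaluronidase, had the lowest p (16.2 to 25.4 FPKM, 0.62, limma adjusted p = 4.84e-05). Hexa, which encodes a lysosomal enzyme, was higher by 0.26, a call lost without knockout replicate 1 (0.23) or knockout replicate 2 (0.29). Calls of the list depended on single libraries, since 3 genes of the list were called higher without wild-type replicate 1, 3 without knockout replicate 1 and 2 without knockout replicate 2. Hyal3, another hyaluronidase family gene, had a negative value (−0.27, limma adjusted p = 0.0625), which was called lower with median-of-ratios scaling (−0.30), with crystallin and erythroid genes left out of the scaling (−0.32), with no variance trend and without knockout replicate 1 (−0.38). Of 8 genes of lectican cleavage, 6 were higher and 0 lower, with a median of 0.37, including the proteases Adamts1 (13.1 to 20.0 FPKM, 0.58) and Adamts9 (0.61) and the protease inhibitor Timp3 (0.37). Adamts4, an aggrecanase, averaged 10.005 FPKM in the wild type and 9.76 FPKM in the knockout (−0.03, limma adjusted p = 0.605), a value whose sign turned with TPM (0.08) and without knockout replicate 2. The list kept 5 or 6 higher calls under all 12 alternatives.

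Among 8 tested genes of other hyaluronan binding proteins, 4 were higher and 1 lower. Ptx3, which builds hyaluronan into the matrix around the oocyte, rose from 2.18 to 5.97 FPKM (1.133, limma adjusted p = 2.28e-05), Itih5, of the inter-alpha-inhibitor family, by 0.54, and Lyve1, the hyaluronan receptor of lymphatic vessels, by 0.85. Tnfaip6, which transfers inter-alpha-inhibitor heavy chains to hyaluronan, fell from 15.3 to 13.2 FPKM (−0.20, adjusted p = 0.00826), a call lost with TPM (−0.09), without wild-type replicate 1 (−0.17) and without knockout replicate 2 (−0.19). Partners of lecticans changed in both directions. Of 10 genes, the 5 that were higher were Tnc (7.76 to 17.9 FPKM, 1.11), Fbln2 (0.99), Fbn1 (0.72), Fbln1 (0.67) and Cspg4 (0.92), and the 3 that were lower were Nrcam (22.1 to 12.4 FPKM, −0.79), Cspg5 (−0.54) and Cntn1 (−0.17). Tnc, Fbln1, Fbln2 and Fbn1 encode matrix proteins of connective tissue that bind lecticans, and Nrcam and Cntn1 neuronal cell adhesion molecules. Cspg5 encodes neuroglycan C, a neural proteoglycan, and Cspg4 encodes another proteoglycan. Both were in the list of partners, but whether they bind lecticans was not examined here. Cntn1 was no longer past the threshold with TPM (−0.06) or without wild-type replicate 2, knockout replicate 1 or knockout replicate 2 (−0.14, −0.16 and −0.18). Tnr, the neural tenascin, averaged 1.28 FPKM in the wild type and 0.88 FPKM in the knockout (−0.28, limma adjusted p = 0.0659), and was called lower with crystallin and erythroid genes left out of the scaling (−0.32) and with no variance trend. Of 4 partners of CD44, Mmp14, a membrane protease, rose from 59.8 to 106.5 FPKM (0.82). Msn (0.24) and Rdx (0.09), which tie CD44 to actin, were also higher. The call of Rdx was lost without any 1 of the 4 libraries (0.08 to 0.10), with no variance trend, with median-of-ratios scaling and with crystallin and erythroid genes left out of the scaling (0.01). Ezr, the third of these linkers, fell from 54.5 to 42.8 FPKM (−0.34).

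Markers of the tissues that carry these matrix genes moved as follows. All 12 periocular mesenchyme markers were higher, and their summed level was 1576 and 1548 FPKM in the wild type and 3434 and 3457 FPKM in the knockout, with Col1a2 and Col3a1 the most abundant. Col1a1 rose by 1.16 and Vcan by 0.88, and the ratio of Vcan to Col1a1 was 0.0846 and 0.0805 in the wild type and 0.0698 and 0.0688 in the knockout. Of 10 tested cartilage markers 7 were higher and 2 lower. The higher ones were the fibrillar collagen genes Col11a1 (15.8 to 31.97 FPKM, 0.97) and Col11a2 (1.04), Cnmd (0.74), which encodes chondromodulin, Col9a2 (0.25), and the cartilage transcription factor genes Sox9 (0.29), Sox5 (0.31) and Sox6 (0.30). The call of Sox5 was lost without any 1 of the 4 libraries (0.27 to 0.35), and that of Sox6 without wild-type replicate 2, knockout replicate 1 or knockout replicate 2 (0.24 to 0.33). The lower ones were Col2a1 (−0.29), the main cartilage collagen gene, and Col9a1 (−0.14), the latter not with TPM (−0.02) or without knockout replicate 1 (−0.11). The summed level of the cartilage markers was 266.8 and 261.8 FPKM in the wild type and 283.1 and 285.8 FPKM in the knockout. The cartilage matrix genes Matn1, Matn3, Comp, Snorc and Ucma were each between 0 and 0.41 FPKM in every library. The ratio of Acan to Col2a1 was 0.00929 and 0.0121 in the wild type and 0.0419 and 0.0448 in the knockout. All 7 bone markers were higher, with summed levels of 20.8 and 19.6 FPKM in the wild type and 168.78 and 170.45 FPKM in the knockout. Some of these bone markers averaged under 1 FPKM in the wild type and passed the filter only through the knockout libraries. Their presence among the tested genes depended on their being high there, so the count of higher bone markers is in part a result of the filter.

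On the neural side, 9 of 10 neuron markers were lower (median −0.38), with summed levels of 676.0 and 687.5 FPKM in the wild type and 521.0 and 523.1 FPKM in the knockout. Of 8 retinal progenitor markers 6 were lower and 1 higher. The ratio of Ncan to the neuronal tubulin gene Tubb3 (−0.22) was 0.0388 and 0.0391 in the wild type and 0.0423 and 0.0422 in the knockout. Of the remaining marker lists, lens was lower for 19 of 19 genes, skeletal muscle higher for 8 of 8, endothelium higher for 4 and lower for 1 of 6, glia higher for 4 and lower for 3 of 9, and amacrine cells and photoreceptors higher for 3 and lower for 5 of 8. Some of the glia and photoreceptor genes called lower averaged under 1 FPKM in the knockout and passed the filter only through the wild-type libraries. The part of these tissue markers in the changes of the hyaluronan matrix genes was not tested.

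**Figure D5:**
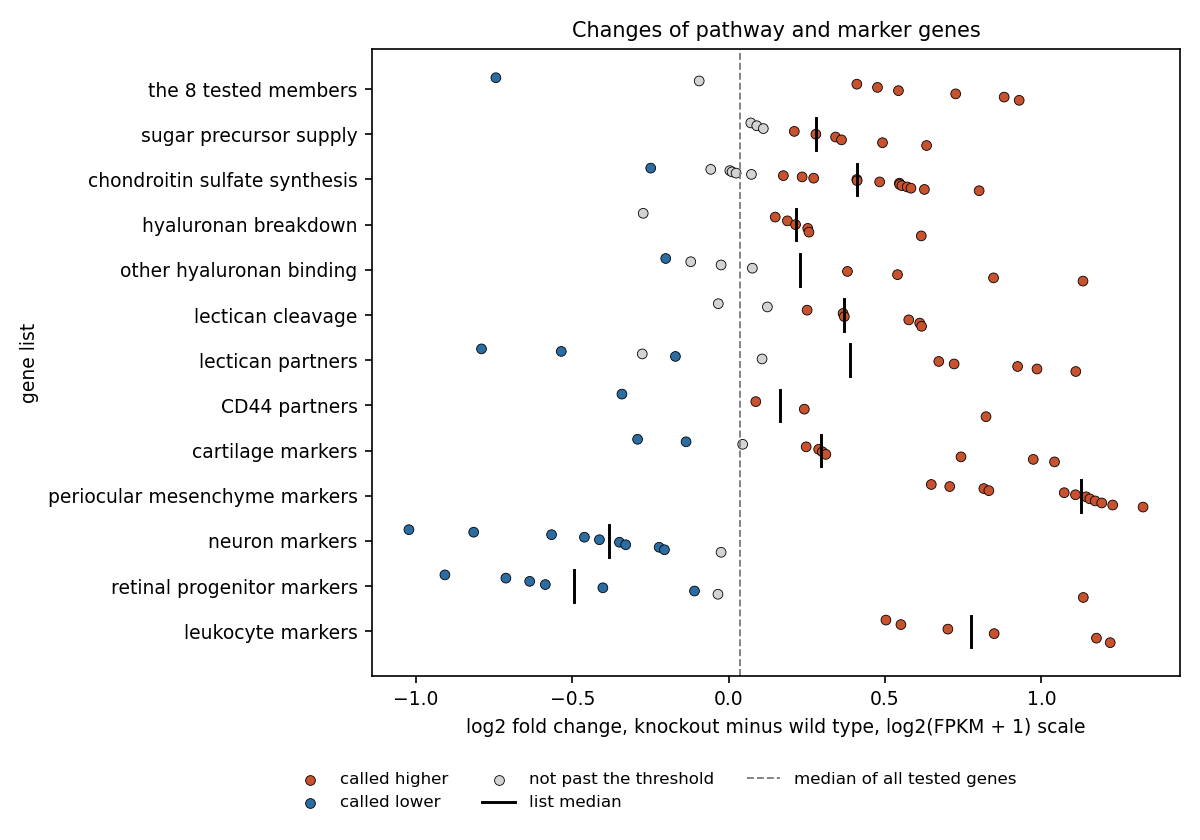
Log2 fold change (log2(FPKM + 1) scale) of each tested gene, by list, coloured by the limma call, with a black bar at the median of a list and a dashed line at the median of all tested genes, 0.04. Periocular mesenchyme markers lie to the right at a median of 1.126, neuron markers to the left at −0.38, and lectican partners on both sides.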

How the data were processed

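Eye tissue RNA of 2 wild-type and 2 knockout libraries was compared, with groups and replicate numbers taken from the sample titles. The authors deposited 1 table per library with FPKM and TPM values, per the file headers; TPM holds the same values rescaled to 1 fixed total. Per the submitters' processing notes, GRCm38 and GRCh38 were builds used and TopHat, HISAT2, DESeq and Cufflinks the tools, with no version, order or role. The sources used here do not say which annotation, filters or strand setting applied. No read counts are in the tables. Low FPKM values of genes with 1 annotated transcript lie near steps of 1 fragment, which gave the depth. Only 55.6% to 62.1% of these values were within 0.15 of a whole number, where chance gives 30% and the best other depths gave 45.3% to 49.3%, so the depth and the fragment numbers are rough and no count test was run. Replicates differed by more than counting noise at that depth (mean chi-square per gene 1.89 in the wild type and 1.57 in the knockout) and were kept as 2.

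Genes averaging 1 FPKM or more entered the test on the log2(FPKM + 1) scale. Genotype was fitted with limma (version 3.58.1, under R version 4.3.3), two-sided, allowing the variance to follow the level, with Benjamini-Hochberg adjustment over all genes tested. Residual degrees of freedom were 2 and prior ones 4.89. The code was tested on simulated data. The 10 members, the gene lists and the tests were chosen with earlier results of these data known. The rule named all members, Anp32b, up to 3 genes per pathway list with the lowest p and those going against their list, and abundant markers (1 gene named by it is not reported here); Hapln2, Has1, Fbln1, Cspg4, Adamts4, Hyal3, Tnr, Col2a1, Col1a1, Tubb3, Ptprc, Gfpt2, the higher cartilage markers and the scarce cartilage genes were added after their values were seen. Positions and transcript lengths come from GENCODE M21, and promoters from RefSeq. Python 3.11.15, numpy 2.4.6, pandas 2.3.3 and matplotlib 3.10.9 were used.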

Additional observations from a re-analysis of the deposited data

How the results depend on the processing

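The calls of Vcan and Cd44 held under all 12 alternatives, and those of Acan, Hapln1 and Hapln3 under the 11 that kept them; Has2 was called under all 12, and Has3 under 10 of 11. A filter of at least 5 FPKM in 2 libraries left Acan, Hapln1, Hapln3 and Has3 untested, so that 3 members were called higher and 0 lower. With that filter 3712 of all 10875 genes tested were called higher and 2517 lower. Only Vcan, Ncan, Has2 and Cd44 were then tested, too few for these member counts to be read against those shares. When crystallin and erythroid genes were left out of the scaling 2 members were called lower, Ncan being the second, and with TPM the change of Ncan was 0.014. With TPM over the same genes 1667 genes were called lower, beside 2932 with FPKM, and 3 pathway genes in place of 6; 80.6% of all calls were then higher, against 61.3% with FPKM and 44.9% with crystallin and erythroid genes left out of the scaling. The mean of Ncan and Bcan minus that of the other members differed between genotypes by −0.41, and by −0.501 with a pseudocount of 0.1. Omission of a library left 3373 to 3937 genes called higher and 2042 to 2288 lower. The labels number the libraries 1 and 2 in both genotypes but do not say that a number marks a litter or batch, and the differences between replicates correlated little across genes (r = 0.044). With the replicate number as a block, 4781 genes were higher and 3047 lower, and the member calls were the same. Adamts4 turned from −0.03 to 0.082 with TPM, and lay between −0.069 and 0.003 with 1 library left out. The cause of these changes was not tested. The FPKM depth limits Bcan and Hapln4 in particular.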
